A study of Rattus norvegicus with 6 samples.

Results

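The genes described here encode enzymes that reduce carbonyl groups or open epoxides: the aldo-keto reductases Akr7a3, Akr7a2, Akr1b8, Akr1b10, Akr1b1 and Akr1a1, the carbonyl reductases Cbr1 and Cbr3, and the microsomal epoxide hydrolase Ephx1. They were found by matching the RefSeq transcript printed for each array probe to these 9 gene symbols. All 9 genes had a probe, 14 probes in all, among 12007 genes and 42256 probes tested. Every one of these probes was well above background on all 6 arrays and none was saturated. The animals were male Sprague-Dawley rats, Crl:CD(SD), bought at 5 weeks of age and kept on a basal diet. For 4 weeks, 3 rats received corn oil and 3 rats received 1-amino-2,4-dibromoanthraquinone, called ADBAQ here, at 1000 mg/kg/day. ADBAQ is a brominated anthraquinone, that is, a quinone fused between aromatic rings, used in dye manufacture. Total RNA of renal cortex, which is the kidney's outer layer, was read from each rat on its own 1-colour Agilent array, and the replicates are separate animals per the labels.

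Aldo-keto reductases and carbonyl reductases use NADPH to turn aldehydes, ketones and quinones into alcohols or hydroquinones. Microsomal epoxide hydrolase, an enzyme of the endoplasmic reticulum, adds water to reactive epoxides. Together these enzymes act on products of oxidative metabolism and of lipid peroxidation, before or beside conjugation to glutathione or glucuronic acid. Several of their genes are known targets of Nrf2, the regulator of antioxidant enzymes, which binds antioxidant response elements in DNA. The kidney cortex consists mostly of proximal tubules, which take up and metabolise foreign compounds.

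Signals are given as the processed signal of a probe divided by the 75th percentile of its array, called the relative signal here, and differences are on the log2 scale, ADBAQ minus corn oil. The 75th percentile was 1126 to 1177 in corn oil and 1279 to 1306 after ADBAQ. Between 69.0% and 72.3% of an array's probes were well above background. Each group was hybridised on 1 slide of its own with its own scan, and the treatment cannot be told apart from either. A gene was called changed at an adjusted p under 0.05 by limma (moderated test, adjusted by Benjamini-Hochberg across the genes tested), which called 35 genes, or 0.291%. Of the proximal tubule markers, 14 of 14 listed genes were tested and each was well above background on all 6 arrays. Among the 14, 0 passed limma's test and 5 had an unadjusted p under 0.05. Over all genes 19.4% had such a p, the share to set beside each such count below. The summed relative signal of the 14 markers was 2428 to 2515 on corn oil arrays and 2195 to 2293 on ADBAQ arrays. Those of lowest p were Miox (-0.21 ± 0.053, SE), Aqp1 (-0.44 ± 0.11) and Slc13a3 (-0.20 ± 0.065). Of the 14 differences, 3 lay above 0 and 11 below, with a median of -0.15. In the lower direction 6 of the markers did not overlap between groups, against 14.8% of all genes. The part of these markers in the results below was not tested. In bulk tissue, fewer cells of a type and less RNA per cell cannot be told apart.

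After ADBAQ, Ephx1 rose 2.09-fold and was the 1 member of the 9 that passed the test over all genes (0.225% of all genes were called higher and 0.0666% lower). Akr7a3, Akr1b10 and Ephx1 were higher in every ADBAQ rat than in any corn oil rat, and Akr7a2 was lower, while the other 5 genes overlapped. Such a separation was met in 27.6% of all genes, 12.7% in the higher and 14.8% in the lower direction. The differences of 8 of the 9 genes lay above 0, against 47.7% of all genes tested, with a median of 0.35 against -0.01 over all genes. An unadjusted p under 0.05 was found for 4 of the 9 (Ephx1, Akr7a3, Akr1b10 and Cbr1), against 19.4% of all genes, and all 4 were higher, against 8.94% of all genes. The 9 genes were chosen with earlier results of these data known. These shares therefore describe the 9 genes and do not test them as a group. By probe, Ephx1 was again the 1 called of 14 (adjusted p = 0.0181 by limma), against 0.248% of all probes in either direction and 0.185% in the higher. The genes differed widely among themselves in how much rats of 1 group varied: Akr1b8 and Akr1b10 varied over 13-fold among corn oil rats.

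**Figure D1:**
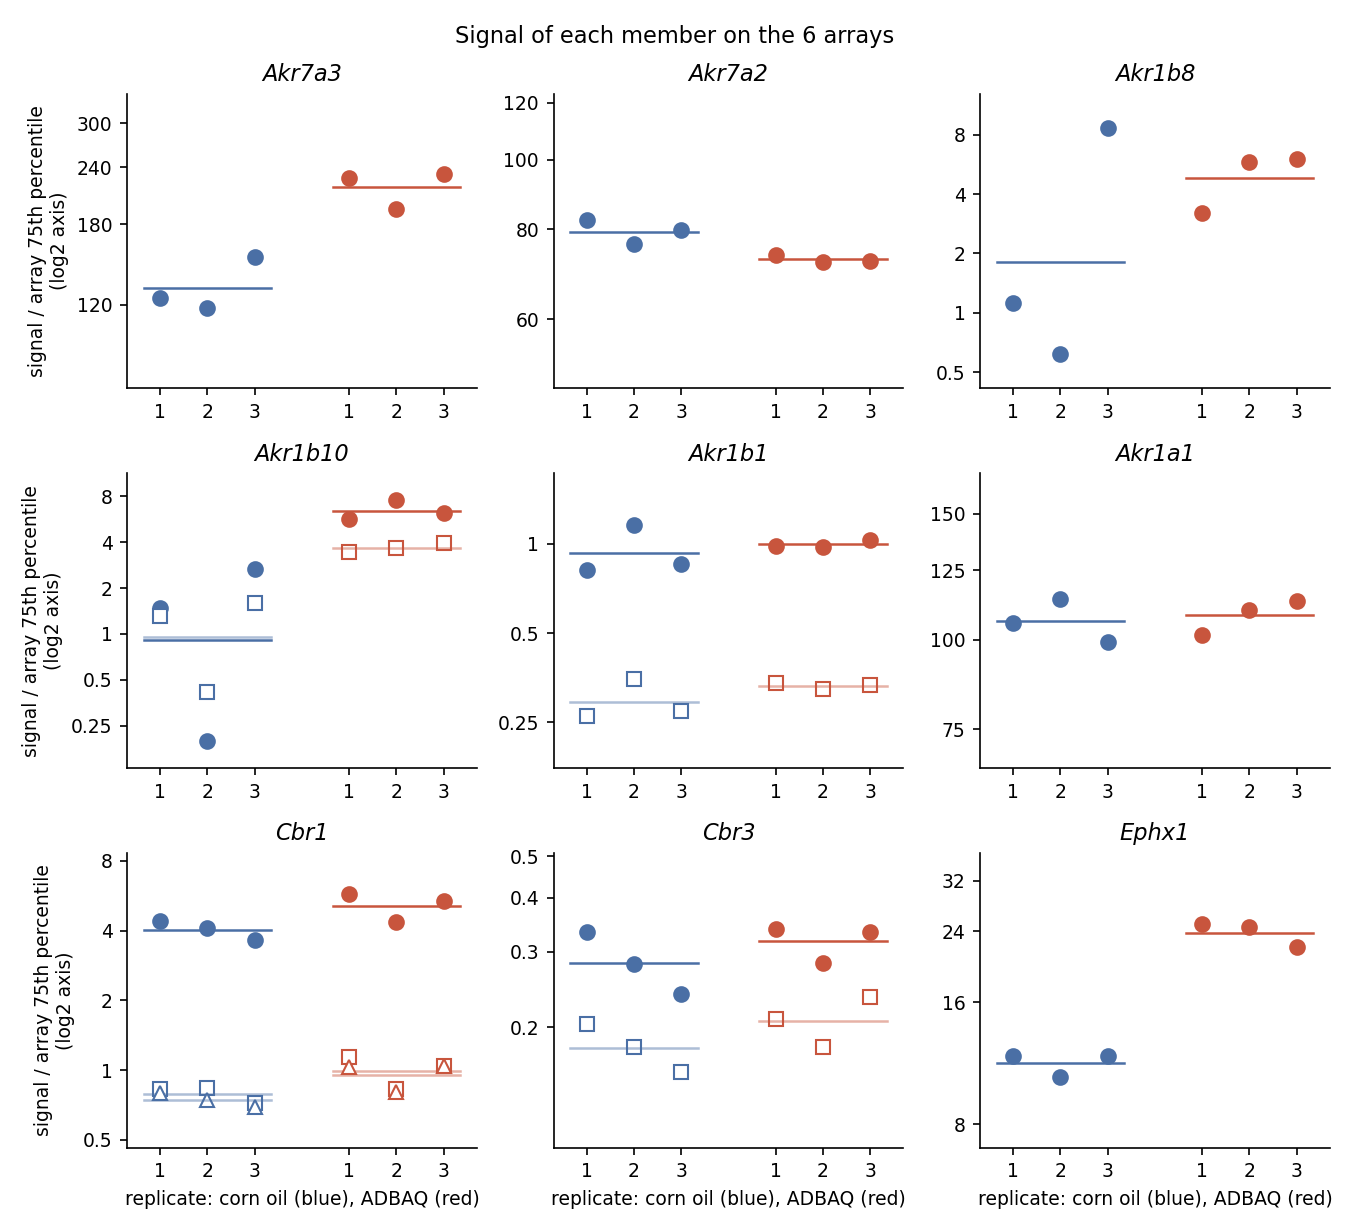
Relative signal of the 9 genes (processed signal over the 75th percentile of the array, log2 axis, a different range in each panel) by replicate for corn oil (blue) and ADBAQ (red). Filled circles are the probe used for the gene, open symbols its other probes, and horizontal lines the mean of the log2 values; Ephx1, Akr7a3 and Akr1b10 separate fully with ADBAQ higher and Akr7a2 with ADBAQ lower, and the corn oil rats of Akr1b8 and Akr1b10 lie far apart.

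Ephx1 encodes microsomal epoxide hydrolase, which detoxifies epoxides formed by cytochromes P450 and in some cases, as with benzo[a]pyrene, takes part in their activation. Its relative signal was 11.8, 10.5 and 11.8 in the corn oil rats and 25.0, 24.5 and 21.9 in the ADBAQ rats. The groups were far apart, and within each group the highest rat exceeded the lowest by 1.13-fold and 1.14-fold. The difference was 1.07 ± 0.084 (SE, n = 3 per group; 95% interval 0.86 to 1.27), with an adjusted p of 0.0116 by limma, and Ephx1 ranked 16 of 12007 genes by p. The call depended on single arrays. Leaving out corn oil replicate 1 gave an adjusted p of 0.0686 and leaving out corn oil replicate 3 gave 0.0569. Leaving out ADBAQ replicate 1 gave 0.0561 and leaving out ADBAQ replicate 2 gave 0.0823. The call held when corn oil replicate 2 (0.0497) or ADBAQ replicate 3 (0.0341) was left out, and the difference stayed between 1.01 and 1.13 in all 6 cases.

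RefSeq's table of promoters (build GRCr8) holds 2 starts of Ephx1. The 250 bases before each annotated start were searched on both strands for the core of the antioxidant response element, TGACNNNGC, and for the core of the xenobiotic response element bound by the aryl hydrocarbon receptor, GCGTG. The first was found in 10.1% and the other in 25.9% of all 33469 promoters of this length. The xenobiotic core was found before 4 of the 8 genes with an entry: Akr7a3, Akr7a2, Akr1b10 and Cbr1, the last with 3 matches, of which 2 overlap. Among 9 promoters of these 8 genes the antioxidant core was found in 1, at the start of Ephx1 that lies further inside the gene, 57 to 49 bases before that start and on the opposite strand. It is shown because Ephx1 is the gene that passed the test, with the match in capitals, in the direction of the gene:

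Ephx1, chr13:95263118-95263367, minus strand: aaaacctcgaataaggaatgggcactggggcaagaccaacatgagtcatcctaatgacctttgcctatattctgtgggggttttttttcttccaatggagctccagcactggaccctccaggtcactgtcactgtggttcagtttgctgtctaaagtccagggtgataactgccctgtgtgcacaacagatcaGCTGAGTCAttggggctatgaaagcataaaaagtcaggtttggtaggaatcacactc

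The capitals read TGACNNNGC on the other strand. At the outer start of Ephx1 neither core was found. A match shows only that these letters are present, and the arrays do not tell which start was used.

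The AKR7 enzymes reduce the dialdehyde of aflatoxin and succinic semialdehyde. Akr7a3 and Akr7a2 lie next to each other on chromosome 5 with no protein-coding gene between them. Akr7a3, the rat aflatoxin aldehyde reductase known for its induction by antioxidants, had a relative signal of 124.1, 118.0 and 152.4 in the corn oil rats and of 227.9, 194.2 and 232.4 in the ADBAQ rats. All ADBAQ rats lay above all corn oil rats. The difference was 0.73 ± 0.13 (SE, n = 3 per group; 95% interval 0.43 to 1.04, 1.66-fold) with an adjusted p of 0.0843, which did not pass. It passed with an intensity trend and robust variances (adjusted p = 0.0454) and without scaling between arrays (adjusted p = 0.0307, difference 0.90), a setting that moved the median of all genes from -0.01 to 0.15.

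Akr7a2, which reduces succinic semialdehyde, had a relative signal of 82.4, 76.2 and 79.7 in corn oil and of 73.6, 72.1 and 72.4 after ADBAQ. The groups did not overlap, with ADBAQ lower, and the 3 ADBAQ rats lay within 1.02-fold of each other. The difference was small, -0.13 ± 0.056 (SE; 95% interval -0.27 to 0.01, adjusted p = 0.282), and had the opposite sign without scaling (0.04). The log2 ratio of Akr7a3 to Akr7a2 within an array was 0.59, 0.63 and 0.94 in corn oil and 1.63, 1.43 and 1.68 after ADBAQ, a shift of 0.86. An exact two-sided permutation test gave p = 0.1, the smallest that 3 against 3 arrays allow (0.13 after Benjamini-Hochberg adjustment over the 4 pairs of relatives compared, pairs picked once their values were known). The ratio was higher in every ADBAQ rat than in any corn oil rat.

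The upstream bases of the pair are shown because both hold the xenobiotic core, in capitals, while their groups separated in opposite directions. In Akr7a3 the match lies 57 to 53 bases and in Akr7a2 27 to 23 bases before the annotated start, both on the strand of the gene:

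Akr7a3, chr5:156876471-156876720, plus strand: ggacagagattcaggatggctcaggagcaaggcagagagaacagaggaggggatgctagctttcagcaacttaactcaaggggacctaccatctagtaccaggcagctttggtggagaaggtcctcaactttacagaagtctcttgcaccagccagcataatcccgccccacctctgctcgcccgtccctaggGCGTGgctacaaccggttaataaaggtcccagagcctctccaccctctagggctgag

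Akr7a2, chr5:156835339-156835588, plus strand: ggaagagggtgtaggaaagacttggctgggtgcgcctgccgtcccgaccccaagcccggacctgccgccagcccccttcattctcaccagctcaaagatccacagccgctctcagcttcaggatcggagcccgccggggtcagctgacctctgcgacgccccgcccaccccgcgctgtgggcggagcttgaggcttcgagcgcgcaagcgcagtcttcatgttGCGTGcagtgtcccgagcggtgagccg

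Neither stretch held the antioxidant core.

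The AKR1B genes lie in a row on chromosome 4 in the order Akr1b1, Akr1b8, Akr1b10 and Akr1b7, with no other protein-coding gene between them. Akr1b1 is aldose reductase, which turns glucose into the osmolyte sorbitol and is best known from the renal medulla, whereas Akr1b8 and Akr1b10 are close relatives that reduce lipid aldehydes and retinal. Akr1b10 had a relative signal of 1.47, 0.197 and 2.65 in the corn oil rats and of 5.71, 7.57 and 6.19 in the ADBAQ rats. Every ADBAQ rat lay above every corn oil rat, and corn oil replicate 2 was far below the other two. The difference was 2.81 ± 0.94 (SE, n = 3 per group; 95% interval 0.49 to 5.14, 7.03-fold), the largest among the 9 genes, with an adjusted p of 0.203. Without corn oil replicate 2 it was 1.71, and without corn oil replicate 3 it was 3.58.

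The other probe of Akr1b10 read 1.32, 0.413 and 1.59 in corn oil and 3.45, 3.64 and 3.98 after ADBAQ. It placed the corn oil rats in the same order and separated the groups as well, with a smaller difference of 1.95 ± 0.50 (SE, 3.86-fold, adjusted p = 0.154 over all probes tested). With the mean of both probes the difference of the gene was 2.38.

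Akr1b8 had a relative signal of 1.12, 0.621 and 8.63 in corn oil and of 3.21, 5.85 and 6.06 after ADBAQ. The groups overlapped, because corn oil replicate 3 exceeded every ADBAQ rat. The difference was 1.41 ± 0.98 (SE; 95% interval -1.0 to 3.83, adjusted p = 0.465). It was 2.54 without corn oil replicate 3 and 0.64 without corn oil replicate 2. Corn oil replicate 2 had the lowest and replicate 3 the highest signal among the 3 controls for both Akr1b8 and Akr1b10. The log2 ratio of Akr1b10 to Akr1b8 was 0.40, -1.66 and -1.70 in corn oil and 0.83, 0.37 and 0.03 after ADBAQ. This ratio shifted by 1.40 and overlapped between groups (exact two-sided permutation p = 0.3, where 0.1 is the smallest possible). Close relatives such as these can share signal on an array, so a probe cannot be assigned to 1 of them with certainty.

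Akr1b1 had a relative signal of 0.814, 1.15 and 0.855 in corn oil and of 0.980, 0.976 and 1.03 after ADBAQ. Here corn oil replicate 2 was the highest of the 6, the reverse of its place for Akr1b8 and Akr1b10. The difference was 0.10 ± 0.14 (SE; 95% interval -0.24 to 0.44, adjusted p = 0.727), and 0.18 ± 0.12 by the other probe. The log2 ratio of Akr1b10 to Akr1b1 did not overlap between groups, with a shift of 2.72 (exact two-sided permutation p = 0.1, the smallest possible). Akr1b7, the last of the row, was not above background on all arrays of either group.

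The stretches before Akr1b8 and Akr1b10 are shown because these neighbours took the same order across the control rats. Akr1b10 holds the xenobiotic core, in capitals, 11 to 7 bases before its annotated start, and Akr1b8 holds neither core:

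Akr1b8, chr4:63964171-63964420, plus strand: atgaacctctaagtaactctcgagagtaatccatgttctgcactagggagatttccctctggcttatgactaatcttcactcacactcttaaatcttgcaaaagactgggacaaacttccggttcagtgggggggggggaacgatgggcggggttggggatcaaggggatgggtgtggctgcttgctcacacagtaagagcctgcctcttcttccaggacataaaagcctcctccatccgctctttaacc

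Akr1b10, chr4:64005382-64005631, plus strand: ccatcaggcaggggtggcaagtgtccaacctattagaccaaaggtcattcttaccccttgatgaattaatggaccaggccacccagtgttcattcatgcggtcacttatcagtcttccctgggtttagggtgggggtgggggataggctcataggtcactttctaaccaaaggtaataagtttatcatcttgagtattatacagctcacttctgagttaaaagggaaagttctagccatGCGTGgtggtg

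The spread between rats set these genes apart from the rest of the group. The SD of the log2 signal over the 3 corn oil rats was 1.99 for Akr1b8 and 1.97 for Akr1b10, against a median of 0.11 over all genes tested. Of 11689 genes well above background on all 6 arrays, 10 had an equal or larger SD in corn oil than Akr1b8 and 12 than Akr1b10. The highest corn oil rat exceeded the lowest by 13.9-fold for Akr1b8 and 13.5-fold for Akr1b10. After ADBAQ the same ratio was 1.89-fold and 1.33-fold, and the SD was 0.52 and 0.21, at the 96.4th and 79.6th percentile of all genes. For Akr1b1 the SD was 0.27 in corn oil and 0.04 after ADBAQ. Of the proximal tubule markers, the transporter Slc7a13 took the same order in corn oil, at 20.9, 12.4 and 78.2 (SD 1.37). Slc22a7 was also highest in replicate 3, at 0.152, 0.215 and 0.813 (SD 1.28). The other markers of that list varied less in corn oil. Their largest SD was 0.29, for Gatm, which was lowest in replicate 3, while Ggt1 (SD 0.26) took the order of Slc7a13. After ADBAQ Slc7a13 read 32.0, 7.96 and 20.1 and Slc22a7 read 0.415, 0.147 and 0.330. The part of these markers in the spread of Akr1b8 and Akr1b10 was not tested. Whether the spread itself differed between groups was not tested, and 3 rats give a poor estimate of a spread.

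**Figure D2:**
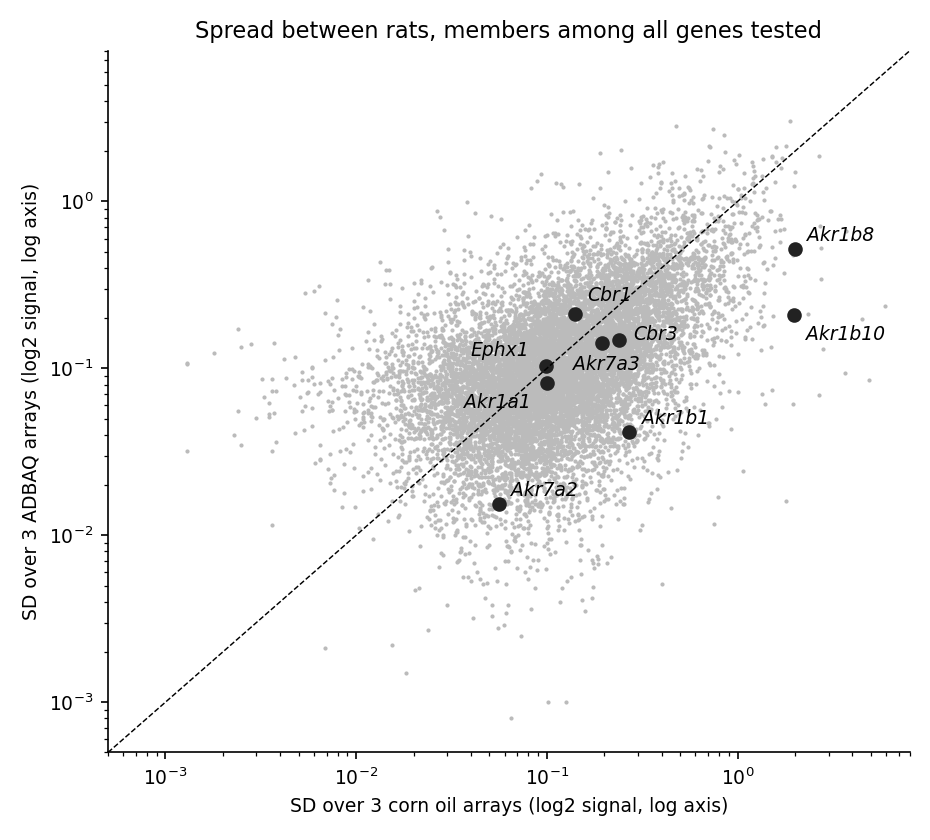
SD of the log2 signal over the 3 corn oil rats (horizontal, log axis) against the SD over the 3 ADBAQ rats (vertical, log axis) for all 12007 genes tested (grey) and the 9 genes named (black), with the dashed line marking equal spread. Akr1b8 and Akr1b10 lie at the right edge, at an SD near 2 in corn oil, and Ephx1 lies near the line at 0.10 in both groups.

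Akr1a1 is aldehyde reductase, which also makes gulonate on the path to ascorbate in rodents. Its relative signal was 105.6, 114.0 and 99.2 in corn oil and 101.6, 110.0 and 113.4 after ADBAQ. The groups overlapped almost fully, with a difference of 0.03 ± 0.079 (SE, n = 3 per group; adjusted p = 0.865). The 95% interval of -0.17 to 0.22 leaves room for small changes of either sign.

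The carbonyl reductases act on quinones, prostaglandins and drugs such as doxorubicin. Cbr1 and Cbr3 lie on chromosome 11, with 3 genes annotated as Cbr1-like between them (Cbr1l1, Cbr1l2 and Cbr1l3), so the Cbr1 probes may also read near copies, which was not tested. Cbr1 had a relative signal of 4.40, 4.09 and 3.63 in corn oil and 5.77, 4.35 and 5.35 after ADBAQ. ADBAQ replicate 2 fell below corn oil replicate 1, so the groups overlapped by this pair. The difference was 0.35 ± 0.13 (SE, n = 3 per group; 95% interval 0.03 to 0.67, 1.27-fold, adjusted p = 0.231). The other 2 probes of Cbr1 gave 0.33 ± 0.14 and 0.35 ± 0.12, and by the latter the groups did not overlap.

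Cbr3 had a relative signal of 0.334, 0.281 and 0.240 in corn oil and 0.339, 0.282 and 0.334 after ADBAQ. The groups overlapped, and the difference was 0.17 ± 0.14 (SE; 95% interval -0.18 to 0.52, adjusted p = 0.554), or 0.21 ± 0.14 by the other probe. Across corn oil replicates 1, 2 and 3 the signals of Cbr3 took the same order as those of Cbr1, and ADBAQ replicate 2 was the lowest of its group for both. The log2 ratio of Cbr1 to Cbr3 was 3.72, 3.86 and 3.92 in corn oil and 4.09, 3.95 and 4.00 after ADBAQ. It did not overlap between groups and shifted by 0.18 (exact two-sided permutation p = 0.1).

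**Figure D3:**
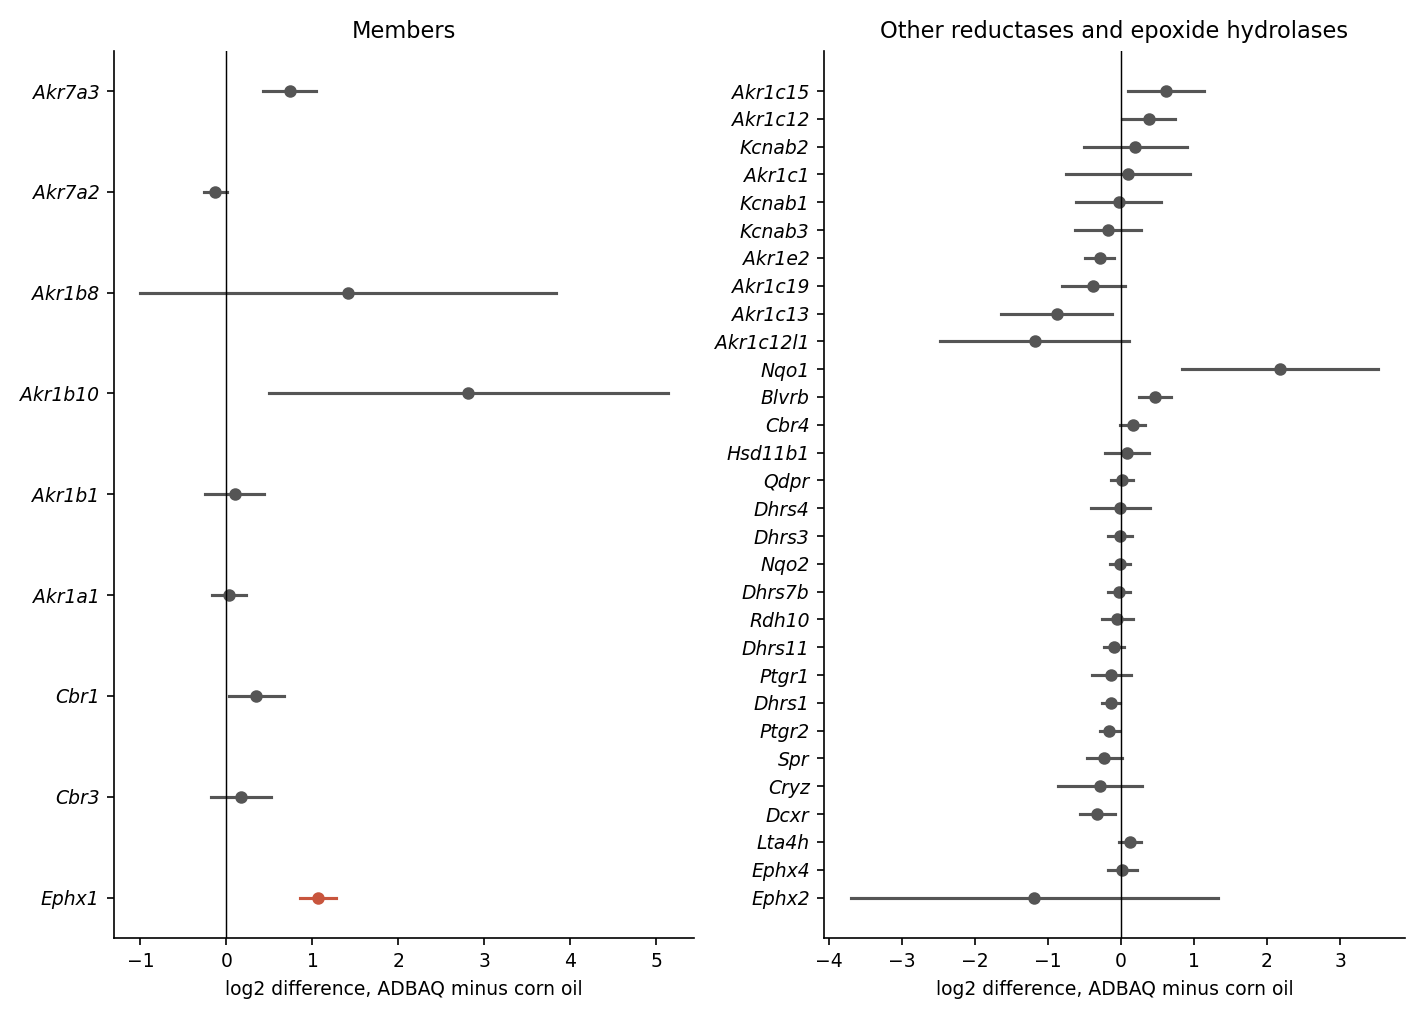
Log2 differences, ADBAQ minus corn oil, with 95% intervals from limma (3 rats per group) for the 9 genes (left) and for the other reductases and epoxide hydrolases tested (right), on separate horizontal scales. Ephx1, in red, is the gene with an adjusted p under 0.05; the intervals of Akr1b8 and Akr1b10 are the widest on the left and that of Ephx2 the widest on the right.

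Other genes with these activities were taken from lists of enzymes. Of 17 further aldo-keto reductases listed, 10 were tested, 5 were not above background and 2 had no matching probe. By limma 0 of the 10 passed and 4 had an unadjusted p under 0.05 (19.4% of all genes), with a median of -0.11. Akr1c15 had a difference of 0.61 ± 0.21 (SE), Akr1e2 one of -0.29 ± 0.078 and Akr1c13 one of -0.88 ± 0.31, with adjusted p values of 0.209, 0.151 and 0.214. Of these, Akr1e2 had 25.3, 21.3 and 23.9 in corn oil and 19.3, 19.4 and 18.8 after ADBAQ, so that its groups did not overlap. Akr1c15 did not overlap either, in the higher direction, at 0.165, 0.126 and 0.107 in corn oil and 0.165, 0.195 and 0.248 after ADBAQ, where the closest rats were nearly equal. The AKR1C genes are close relatives, and whether a probe reads more than 1 of them was not tested.

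Of 20 further carbonyl and quinone reductases listed, 17 were tested and 0 passed by limma. An unadjusted p under 0.05 was found for 5 (19.4% of all genes), and the median was -0.02. Nqo1, the quinone reductase that takes quinones to hydroquinones, had a relative signal of 0.184, 0.150 and 0.304 in corn oil and 1.39, 0.410 and 1.39 after ADBAQ. All ADBAQ rats lay above all corn oil rats. Replicate 2 was the lowest ADBAQ rat, as for Cbr1, Cbr3, Akr7a3, Akr7a2 and Akr1b1. Akr1b8, Akr1b10 and Akr1a1 were instead lowest in ADBAQ replicate 1 and Ephx1 in ADBAQ replicate 3. How common such an order is over all genes was not tested. The difference of Nqo1 was 2.18 ± 0.55 (SE, adjusted p = 0.137). Blvrb, the flavin and biliverdin reductase that is abundant in red cells, had a difference of 0.46 ± 0.088 (adjusted p = 0.104). Dcxr, the xylulose reductase of the tubule, had one of -0.32 ± 0.096 (adjusted p = 0.169).

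Of the other epoxide hydrolases, Ephx2, Ephx4 and Lta4h were tested and Ephx3 was not above background. None of the 3 passed limma's test, and 0 had an unadjusted p under 0.05. Ephx2, the soluble enzyme that opens epoxides of arachidonic acid, had a relative signal of 6.41, 2.23 and 2.36 in corn oil and 0.296, 3.40 and 2.87 after ADBAQ. Its groups overlapped and ADBAQ replicate 1 stood far below the rest, with a difference of -1.18 ± 1.02 (SE, adjusted p = 0.558). Lta4h, which makes leukotriene B4, had a difference of 0.12 ± 0.061 (adjusted p = 0.327) and Ephx4 one of 0.02 ± 0.083 (adjusted p = 0.905). Whether the difference of Ephx1 departs from that of Ephx2 was not tested.

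Akr1b1 works in the polyol pathway. Of 6 genes of that pathway and of the response to osmotic stress, all tested, 0 passed by limma. An unadjusted p under 0.05 was found for 3 (19.4% of all genes). Sord, the sorbitol dehydrogenase that follows Akr1b1, had a difference of 0.26 ± 0.075 (SE, adjusted p = 0.167). Khk, which phosphorylates fructose, had one of -0.26 ± 0.083 (adjusted p = 0.189), and Nfat5, the factor that drives Akr1b1 under hypertonic conditions, had one of 0.19 ± 0.074 (adjusted p = 0.244). The 6 differences lay between -0.26 and 0.26.

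Nrf2 and its common targets were also listed, without the 9 genes. Of 21, 20 were tested: 5 were called higher (0.225% of all genes) and 0 lower (0.0666%). In the higher direction 12 did not overlap (12.7% of all genes), and the median was 0.38. This list holds genes known to be high from earlier results of these data. The 5 that rose were Gstm1 (3.12 ± 0.33), Gstp1 (2.03 ± 0.13) and Gsta3 (0.79 ± 0.063), which conjugate glutathione, the efflux transporter Abcc4 (1.36 ± 0.12) and the iron protein Pir (1.56 ± 0.089). Gclc, the catalytic subunit of the enzyme of glutathione synthesis, had a relative signal of 47.9, 32.2 and 125.8 in corn oil and 77.1, 24.0 and 55.8 after ADBAQ. Within corn oil it took the order of Akr1b8, lowest in replicate 2 and highest in replicate 3, and its difference was -0.30 ± 0.64 (adjusted p = 0.819). Srxn1, which reduces oxidised peroxiredoxins, was lowest in replicate 1 and highest in replicate 2, at 1.41, 4.55 and 3.24 in corn oil. After ADBAQ it read 7.43, 8.18 and 6.68, above every corn oil rat. Its difference was 1.43 ± 0.42 (SE, adjusted p = 0.169 by limma).

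**Figure D4:**
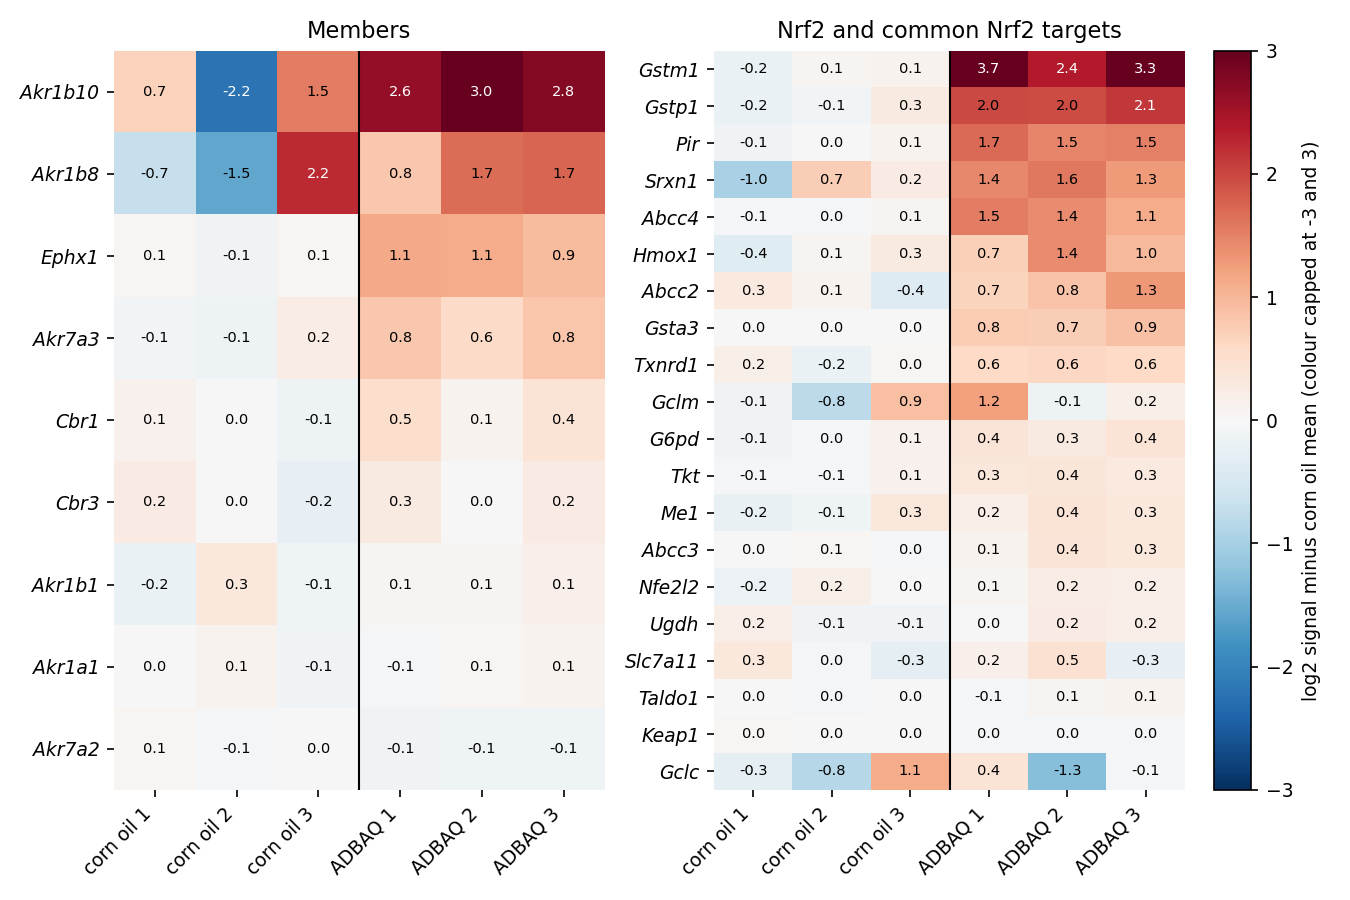
Log2 signal of each rat minus the mean of the 3 corn oil rats (colour, capped at -3 and 3, with the value in each cell) for the 9 genes (left) and for Nrf2 and its common targets (right), each sorted by difference. Akr1b8, Akr1b10, Gclc, Srxn1 and Gclm vary among the corn oil rats, in which Srxn1 runs in another order, while Ephx1 and Pir have an SD of 0.10 to 0.12 in each group.

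Genes called in the same direction as Ephx1, outside the 9 genes and the lists, were ranked by the Pearson correlation of their log2 signals with those of Ephx1 over the 6 arrays. Of 16 such genes the most alike were Cpeb1, which binds messenger RNA (0.995), Csmd1, a membrane protein with complement control domains (0.992), and the cytochrome Cyp1a1 (0.985). All were chosen for being higher after ADBAQ, so much of this likeness is fixed by the choice.

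Markers of other cells were read beside these results. Of 14 red cell markers listed, 11 were tested. All 11 were higher in every ADBAQ rat than in any corn oil rat, against 12.7% of all genes. Among the 11, 5 were past limma's threshold, against 0.225% of all genes called higher, and the median was 1.05. Their summed relative signal was 656.4 to 730.6 in corn oil and 1166 to 1367 after ADBAQ, and Rhag was not above background. The 5 that rose were Alas2, which makes the first intermediate of haem in red cell precursors (1.61 ± 0.092, SE), the globins Hbb (1.04 ± 0.080) and Hba-a3 (1.05 ± 0.091), Hemgn (1.07 ± 0.084) and Rhd (1.54 ± 0.13). The globin genes are near copies whose probes may share signal. This list, too, holds genes known to be high from earlier results. The part of red cells in the difference of Ephx1 was not tested. Of 13 leukocyte markers, 11 were tested, 0 passed limma's test, 1 had an unadjusted p under 0.05, and the summed signal was 5.01 to 5.91 in corn oil and 4.86 to 5.72 after ADBAQ. The leukocyte genes of lowest p were Itgam, well above background on 1 corn oil array and 3 ADBAQ arrays (adjusted p = 0.157), Cd3e (-0.78 ± 0.33) and Cd3g (-0.75 ± 0.35). Of all 11 leukocyte markers, 6 differences lay above 0 and 5 below, with a median of 0.03. Of 11 markers of the thick limb, distal tubule and collecting duct, 10 were tested and 0 passed, with 4 at an unadjusted p under 0.05 and sums of 545.6 to 621.9 in corn oil and 445.8 to 606.3 after ADBAQ. Those of lowest p were Scnn1g (0.26 ± 0.065), Aqp4 (0.85 ± 0.23) and Calb1 (0.51 ± 0.15). Of all 10 distal markers, 5 differences lay above 0 and 5 below, with a median of 0.06.

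Markers of adrenal gland and liver were read as well. Of 7 adrenal markers, Th, Cyp11a1 and Cyp21a1 were tested and Cyp11b1, Cyp11b2, Star and Dbh were not above background. Cyp11a1 was well above background on 3 corn oil arrays and 1 ADBAQ array. The differences were 0.27 ± 0.067 for Th, -1.01 ± 0.58 for Cyp11a1 and -0.06 ± 0.12 for Cyp21a1. By limma 0 of the 3 passed, 1 had an unadjusted p under 0.05, and the sum was 2.27 to 2.48 in corn oil and 2.74 to 2.86 after ADBAQ. Th made up most of this sum, at 2.14, 1.90 and 2.07 in corn oil and 2.40, 2.43 and 2.52 after ADBAQ. The groups overlapped for Cyp11a1 and Cyp21a1. Of 9 hepatocyte markers, 8 were tested and 0 passed, with 2 at an unadjusted p under 0.05, and the sum was 2.77 to 4.33 in corn oil and 3.94 to 4.35 after ADBAQ. Tat was not above background, and beside Apoa2 the lowest p were those of Cyp2c11 (-1.39 ± 0.40) and Serpina1 (0.39 ± 0.32). Apoa2 was well above background on 0 corn oil arrays and on 3 ADBAQ arrays, so it was tested only through the group where it was high. Its adjusted p by limma was 0.0524, which rests on corn oil values not well above background. By its bound, which was added after seeing these values, the means of the 2 groups differed by 2.61-fold. The bound is not a test.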

How the data were processed

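Amplified RNA carried the Cy3 dye, per the labels' protocols. Feature Extraction 10.7.1.1 read each array and gave each spot a background-subtracted processed signal intensity on a linear scale, with flags per spot (other units), per the file headers. The authors' deposited table holds, on a linear scale, each processed signal divided by a constant of its array (a ratio), within 0.0858% of that array's 75th percentile.

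From these values, 1319 control spots and 73 probes with an outlier flag were left out. Log2 signals were set against each array's 75th percentile, and a probe was tested where every array of 1 group or both had it well above background, with limma 3.58.1 in R 4.3.3 (no covariates, two-sided, Benjamini-Hochberg over all genes). Accessions were named through RefSeq genes (GRCr8); the probe with the highest mean stood for a gene. Probe sequences were not used here. A bound sets the bright group's mean against, per dim array, the higher of the probe's signal and the lowest signal well above background. Lists (other aldo-keto reductases, other carbonyl and quinone reductases, other epoxide hydrolases, polyol and osmotic genes, Nrf2 targets, cell markers) and members were chosen with earlier results of these data known. The text names, per list, the genes past the threshold (where there were none, the 3 of lowest p). For a called member it names the 3 most correlated genes called in its direction. Values of Gclc, Srxn1, Slc7a13, Slc22a7, Gatm and Ggt1 and the bound of Apoa2 were added after seeing them. Alternatives were normexp, quantile or no scaling, the deposited table, other detection filters, the mean of probes, trend and robust variances, a replicate block and leaving out each array. Tests were checked on simulated data. Precision is limited by having 3 arrays in each group.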

Additional observations from a re-analysis of the deposited data

How the results depend on the processing

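Ephx1 kept its direction under the 15 alternatives (0.93 to 1.23) and lost its call in 5: the 4 single-array omissions given above and the replicate block (adjusted p = 0.113). Akr7a3 passed in 2 alternatives. Opposite signs were met for Akr7a2 without scaling (0.04) and for Akr1a1 in the single-array omissions (-0.0203 to 0.0799), below 0 without corn oil replicate 3 and, at -0.0055, without the ADBAQ array of that number. The other 5 genes kept their direction and stayed outside the threshold in all 15. The number of the 9 genes called higher was 2 without scaling, 2 with trend and robust variances, 0 with the replicate block, and 0 to 1 when 1 array was left out.

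Over all genes, 27 were higher and 8 lower. These counts were 67 and 78 with normexp background correction, 1027 and 54 without scaling, 72 and 84 with trend and robust variances, and 4 lower without the detection filter. Over probes, 78 and 27 became 228 and 199, 2599 and 144, and 242 and 227 in the first 3 of these, and 31 and 4 without the filter. Leaving out 1 array gave 11 to 25 genes higher, 3 to 10 lower, 1 to 60 probes higher and 0 to 19 lower. With the replicate block limma called 0 genes and 0 probes in either direction, with 2266 genes at an unadjusted p under 0.05. By the sample titles, same-numbered rats of the groups have only that number in common. Their deviations correlated at 0.009, 0.157 and 0.035 over genes. Rats of different numbers were not compared, so whether same-numbered rats share a factor was not tested. The cause of these shifts was not tested. The slide could not be fitted as a block, since each slide held 1 group.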
